A study of Mus musculus with 2 samples.

Results

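Type IV collagen, laminin and nidogen genes of the basement membrane were examined in lung cells of mouse pups after blockade of Hedgehog ligands. The members are the 10 genes Col4a1, Col4a2, Col4a3, Col4a4, Lama3, Lama4, Lamb1, Lamc1, Nid1 and Nid2, taken by name out of the 29004 features counted. They were measured by droplet single-cell RNA sequencing with a 10x Genomics 3' kit, in which each unique molecular identifier (UMI) counts 1 captured transcript molecule. All 10 were found, and together they gave 53272 UMIs in cells from pups given the antibody 5E1 and 69653 in cells from pups given control IgG.

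The 5E1 library came from postnatal day 6 lungs of pups that received 5E1, an antibody against Hedgehog ligands, at day 3. The IgG library came from day 6 lungs of pups that received control IgG at day 3. Pups of both groups carried 1 Gli1 allele with a tamoxifen-inducible Cre (Gli1creERT2/+) and a tdTomato reporter (R26RtdTom/+), and both groups were given tamoxifen at day 1. Lungs of 3 pups were pooled for each library and about 20000 cells were loaded, so each condition is 1 sample, and no difference below has a replicate check. Whole lung was dissociated, and the 23 clusters of cells are the authors'.

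The 5E1 library held 9454 annotated cells and 58890639 UMIs, and the IgG library 13509 cells and 77436890 UMIs, with medians of 4636 and 4541 UMIs per cell. The sex of the pooled pups differed: Xist, an RNA that the inactive X chromosome makes, was detected in 27.4% of 5E1 cells and 91.6% of IgG cells, and Y-linked genes gave 5009 UMIs in 5E1 and 4 in IgG. Of the cell barcodes, 184 occurred in both libraries, 1.95% of the 5E1 cells and 1.36% of the IgG cells. Levels are given as CPM, the UMIs of a gene per 1000000 UMIs of all genes in the same cluster and library. Intervals in parentheses are exact 95% intervals for counting error only, which treats UMIs as independent molecules. Because only transcript ends are captured, CPM of different genes are not compared with one another.

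Basement membranes are thin sheets of extracellular matrix under epithelia and around capillaries, muscle and nerve. Laminins, each made of an alpha, a beta and a gamma chain, assemble on the cell surface. A network of type IV collagen lies over them, and nidogens bind both. The chains encoded by Col4a1 and Col4a2 assemble with each other and are found in nearly all basement membranes, whereas those of Col4a3 and Col4a4 assemble with the Col4a5 chain in selected places, among them kidney glomerulus and lung alveolus. In the alveolus the membranes of flat alveolar type 1 (AT1) cells and of capillary endothelium fuse into the sheet across which gas diffuses. Hedgehog ligands come mainly from epithelium in the lung and act on the mesenchyme beneath it.

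Clusters were named from lists of marker genes, and a name ending in "like" means that at least 3 markers of that type were among the 30 genes leading the cluster. The names used below are AT1-like (cluster 15), alveolar type 2 (AT2)-like (9), endothelial-like (11), pericyte-like (13), alveolar myofibroblast-like (21, 23 and 12, of which 12 also led with cell division genes), smooth muscle-like (16), adventitial fibroblast-like (18), matrix fibroblast-like (19 and 20) and mesothelial-like (17). Clusters 3, 6, 10 and 22 led with markers of several types or of none and are given by number. Cluster 14 had 6 of 14 matrix fibroblast markers among its 30 leading genes, which meets the rule for a matrix fibroblast-like name. It is also given by number, because haemoglobin and platelet genes were among its leading genes too. It had 67 cells in the 5E1 library and 256 in the IgG library.

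The 4 collagen genes form 2 pairs that lie head to head. In the mm10 genome, Col4a1 lies at chr8:11198423-11312826 on the minus strand and Col4a2 at chr8:11312805-11449287 on the plus strand, so their annotated first exons overlap by 22 bases. Col4a4 lies at chr1:82448423-82586849 on the minus strand and Col4a3 at chr1:82586921-82722059 on the plus strand, with 71 bases between their annotated start sites. The 2 sequences from which each pair is transcribed outwards are shown because the results follow these pairs, with the GC box letters GGGCGG in capitals. They are from RefSeq, build GRCm38.p6, and read 5′ to 3′ on the plus strand for the overlap and on the minus strand for the gap.
Col4a1 and Col4a2 overlap, chr8:11312805-11312826: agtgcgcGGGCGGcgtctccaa
Col4a4 and Col4a3 gap, chr1:82586850-82586920: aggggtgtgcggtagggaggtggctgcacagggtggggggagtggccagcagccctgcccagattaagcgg

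Stretches upstream of 2 members from the other classes, Lamb1 and Nid1, which with the first collagen pair were lower in the 5E1 library in alveolar myofibroblast-like cells, are shown for comparison. Capitals mark GC boxes (GGGCGG, or CCGCCC on the other strand) and CCAAT boxes (CCAAT, or ATTGG).
Lamb1 upstream, plus strand, chr12:31265043-31265233: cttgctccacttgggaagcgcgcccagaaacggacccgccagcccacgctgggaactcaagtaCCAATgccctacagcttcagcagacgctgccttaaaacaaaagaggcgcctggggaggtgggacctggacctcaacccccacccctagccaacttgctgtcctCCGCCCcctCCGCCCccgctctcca
Nid1 upstream, plus strand, chr13:13437352-13437550: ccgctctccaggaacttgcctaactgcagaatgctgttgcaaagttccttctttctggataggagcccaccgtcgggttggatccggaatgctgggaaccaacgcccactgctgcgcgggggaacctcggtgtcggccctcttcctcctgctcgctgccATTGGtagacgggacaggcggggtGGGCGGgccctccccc

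RefSeq promoter windows of 300 bases were matched for 5 members, Col4a1, Col4a2, Col4a4, Lamb1 and Nid1, and searched on both strands. The GC box was in the windows of Col4a1 (1 match), Col4a2 (3), Lamb1 (2) and Nid1 (1) and not in that of Col4a4, and 35.6% of 32817 windows of all genes hold it. The CCAAT box was in the windows of the same 4 members, once each, and is in 37.4% of all windows. Neither the letters of the TATA box (TATAAA, 13.6% of all windows) nor those of the binding motif of Gli factors (GACCACCCA, 0.253%) were in any of the 5 windows. A match or its absence describes these letters in this window only.

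Each of the 10 genes was highest in the same cluster in both libraries. Col4a1 and Col4a2 were highest in pericyte-like cells and next in endothelial-like cells. Col4a3, Col4a4 and Lama3 were highest in AT1-like cells, Nid1 in pericyte-like and Nid2 in mesothelial-like cells. Lama4, Lamb1 and Lamc1 reached their highest level in cluster 14, followed by pericyte-like cells for the first 2 and mesothelial-like cells for Lamc1. By the range of its 2 libraries, the highest cluster lay apart from the next for each member but Lamc1, whose ranges in cluster 14 and mesothelial-like cells overlap. Below the top, Col4a1 in endothelial-like cells also lay apart from the next cluster, 14, and from there down to cluster 22 each of 5 neighbours (15, 21, 18, 23 and 22) overlapped the one before it. Neighbours lay apart over the first 6 clusters for Lamb1, the first 4 for Col4a4 and the first 3 for Lama3 and Nid2, whereas Lama4 overlapped between neighbours in clusters 13, 20, 19 and 18 and Nid1 in cluster 14 and adventitial fibroblast-like cells. Across the 23 clusters, the pairs of members with the highest correlation of log2(CPM + 1), each the mean of both libraries, were Col4a1 with Col4a2 (r = 0.99), Lama4 with Nid1 (0.96), Col4a3 with Col4a4 (0.93) and Lama4 with Lamb1 (0.93). Col4a1 and Col4a3, from different collagen trimers, gave r = 0.22. Clusters of 1 library share its depth and its free RNA, so these values are descriptions.

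**Figure D1:**
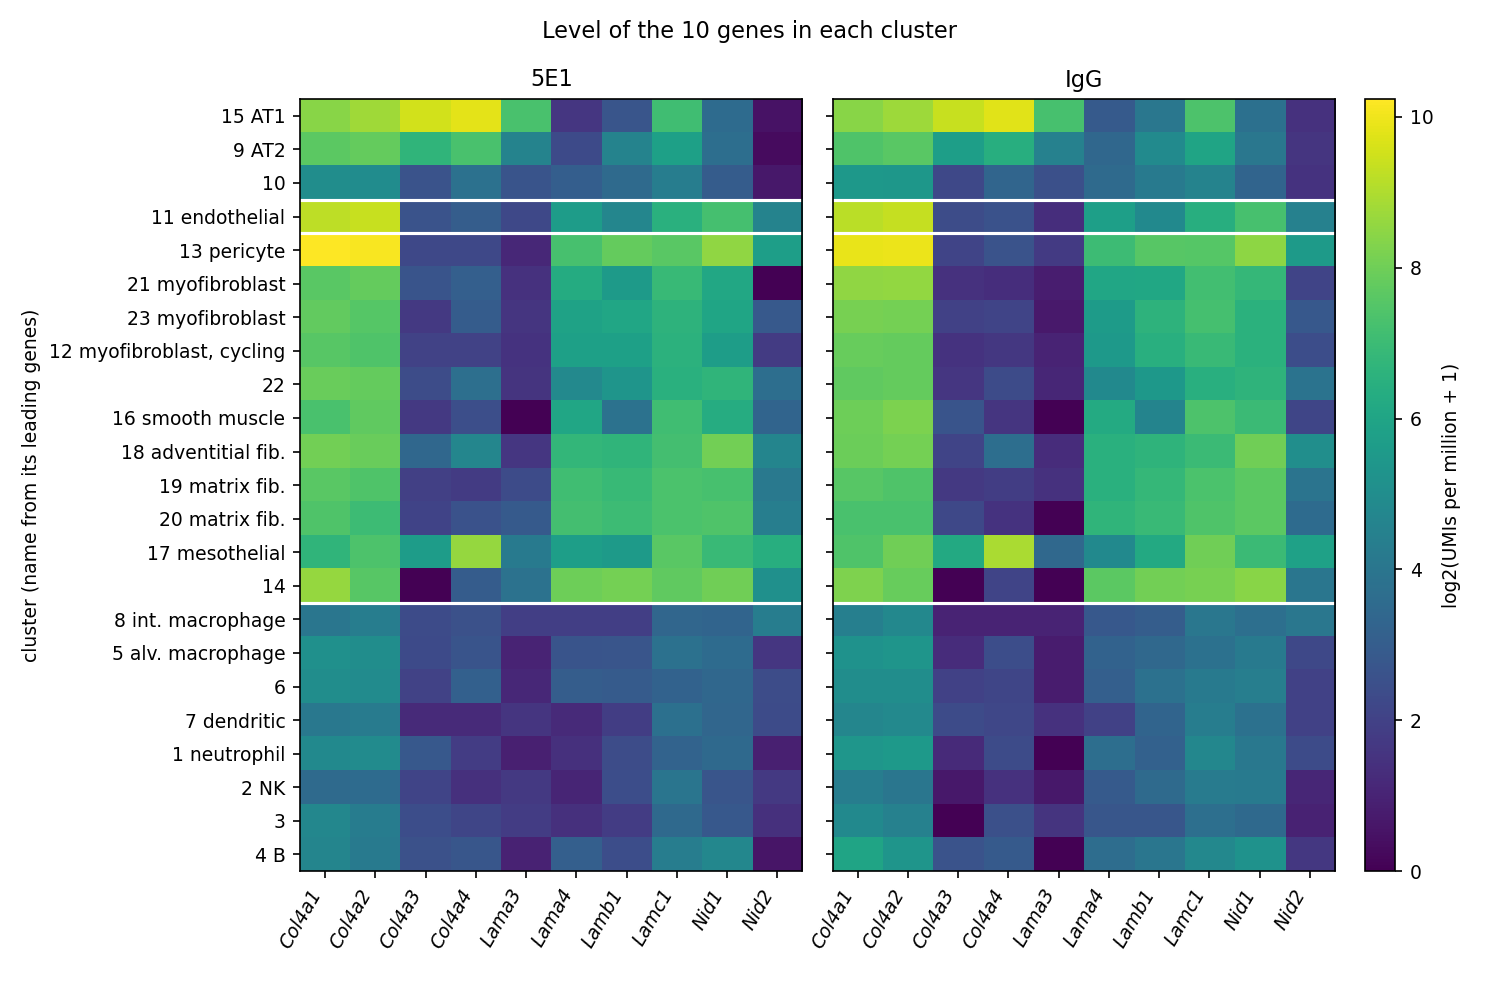
Level of each gene (columns) in each cluster (rows; epithelial, endothelial, mesenchymal and immune clusters separated by white lines; fib. is fibroblast, int. interstitial, alv. alveolar) as log2(CPM + 1), 5E1 library left and IgG library right. Col4a1 and Col4a2 are brightest in the pericyte row, Col4a3, Col4a4 and Lama3 in the AT1 row, and the 2 panels keep the same pattern.

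The share of transcripts that each compartment contributed differed between the libraries together with the make-up of the cells. Of all Col4a1 UMIs, 46.7% in the 5E1 library and 31.4% in the IgG library were in endothelial-like cells, and 38.8% and 57.1% in mesenchymal clusters. Of Col4a3 UMIs, 89.2% in 5E1 and 82.3% in IgG were in epithelial clusters. For Lama4 the mesenchymal share was 72.4% in 5E1 and 77.6% in IgG. Levels within a cluster are taken per UMI of that cluster, whatever the number of its cells, and are used from here on. Free RNA from other clusters can still enter them.

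The comparison of the libraries asked in which cells the basement membrane genes differ after Hedgehog blockade. A gene was compared in a cluster where it had at least 50 UMIs over the 2 libraries and, in at least 1 library, at least 5% of its CPM in its highest cluster. That left 105 gene and cluster pairs, between 2 for Lama3 and 20 for Lamc1, so that every member entered in some cluster. At least 1.5-fold higher in 5E1 were 5 of the 105 pairs (4.76%), against a background of 4.38% over all genes with at least 50 UMIs in each of the 23 clusters. At least 1.5-fold lower were 17 (16.2%), against a background of 6.32%. The background was taken without the limit of 5%, so the shares of members and of all genes are not on the same terms. Some pairs, such as Col4a1 in cluster 4, passed that limit only through the library where the gene was higher. Of the 73 pairs in mesenchymal clusters 3 were higher and 12 lower, of 16 in epithelial clusters 2 were higher and 1 lower, of 7 in endothelial-like cells none was either, and of 9 in immune clusters 4 were lower. The background was not pooled by compartment. Over single mesenchymal clusters it ran between 2.97% and 10.2% higher and between 3.87% and 19.2% lower. In epithelial clusters it ran between 2.1% and 4.3% higher and between 3.66% and 5.7% lower. In endothelial-like cells it was 2.38% higher and 3.85% lower. In the immune clusters with a lower pair, between 5.77% and 8.33% of genes were lower. Of the 22 pairs past 1.5-fold, 6 stayed past it under each of 5 other ways of scaling, weighting or selecting the cells. Lower were Col4a1, Col4a2 and Nid1 in cluster 21. Higher were Col4a3 in AT2-like cells, Lama4 in mesothelial-like cells and Nid2 in cluster 20. Nid2 in cluster 20 rests on 43 UMIs in 5E1 and 12 in IgG, and the interval of its ratio includes 1.

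The first collagen pair, Col4a1 and Col4a2, which encode the chains of the common trimer, differed most, outside the immune clusters, in alveolar myofibroblast-like cells, the contractile cells of the forming septa. In cluster 21, Col4a1 stood at 193 CPM (173 to 215) in the 5E1 library and 366 CPM (349 to 383) in the IgG library, 1.89-fold (1.68 to 2.14) lower in 5E1. Col4a2 stood at 224 CPM (202 to 248) in 5E1 and 379.8 CPM (363 to 397) in IgG there, 1.69-fold (1.52 to 1.89) lower. Both intervals of each gene lie apart. The difference was smaller in the other 2 alveolar myofibroblast-like clusters. Col4a1 stood at 216 CPM (201 to 232) in 5E1 and 278 CPM (260.1 to 298) in IgG in cluster 23, and at 191 CPM (170.5 to 214) in 5E1 and 230.0 CPM (218 to 242) in IgG in cluster 12. Col4a2 stood at 185 CPM in 5E1 and 274 CPM in IgG in cluster 23 and at 172 CPM in 5E1 and 228 CPM in IgG in cluster 12. All 4 of these were lower in 5E1 by less than 1.5-fold, with intervals of the ratio that leave out 1. Immune clusters, which make little basement membrane, also held UMIs of the gene: over the 8 of them Col4a1 ranged between 10.47 and 34.04 CPM in 5E1 and between 19.2 and 61.9 CPM in IgG, below its level in cluster 21 in either library. The largest of these differences was in B cell-like cells (cluster 4), where Col4a1 stood at 23.97 CPM (17.8 to 31.6) in 5E1 and 61.9 CPM (49.5 to 76.6) in IgG, the 1 of 3 members compared there that was lower past 1.5-fold, against a background of 4.19% of genes higher and 5.77% lower. Markers of pericytes summed to 60.9 CPM in 5E1 and 254 CPM in IgG in that cluster, with 11 of 13 lower in 5E1, and their part in the difference was not tested. With the B cell-like level subtracted in each library, the log2 ratio of Col4a1 was -0.84 in cluster 21, -0.17 in cluster 23 and -0.0049 in cluster 12.

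Pericyte-like cells, which wrap capillaries, went the other way by less than 1.5-fold. Col4a1 stood at 1205 CPM (1153 to 1259.9) in 5E1 and 956 CPM (914 to 998) in IgG, 1.26-fold (1.18 to 1.34) higher in 5E1, and Col4a2 at 1119 CPM (1069 to 1172) and 985 CPM (943 to 1028). The median depth of pericyte-like cells was 4643 UMIs in 5E1 and 4592 in IgG. After every cell was thinned to 1000 UMIs, a Col4a1 UMI was found in 69.7% of pericyte-like cells in 5E1 (95.7% unthinned, 4 shallower cells left out) and 59.3% in IgG (93.0% unthinned, 6 left out). In B cell-like cells the thinned shares were 1.64% in 5E1 and 1.60% in IgG (7.28% and 10.3% without thinning). The median depths of B cell-like cells were 3325 UMIs in 5E1 and 2498 in IgG. Beside the collagens, the pericyte list itself summed to 16919 CPM in 5E1 and 15090.3 CPM in IgG, the smooth muscle list to 4383 CPM and 4498 CPM, and the blood endothelial list to 262 CPM and 414 CPM.

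In the remaining places Col4a1 and Col4a2 split by cell type. Endothelial-like cells differed little: Col4a1 stood at 599 CPM (585 to 613) in 5E1 and 571 CPM (556 to 585) in IgG, and Col4a2 at 662 CPM (647 to 676) and 646 CPM (630.4 to 661). AT1-like cells had Col4a1 at 338 CPM (315 to 362) in 5E1 and 343 CPM (316 to 372) in IgG, with intervals that overlap, and matrix fibroblast-like cells of cluster 19 had it at 198 CPM (181 to 216) and 190.4 CPM (182 to 199.6), likewise overlapping. Both collagens were lower in 5E1 in mesothelial-like cells, which line the lung surface. There Col4a1 stood at 101 CPM (85.6 to 119) in 5E1 and 170.1 CPM (152 to 189.8) in IgG, 1.68-fold (1.37 to 2.05) lower, and Col4a2 at 167 CPM (147 to 189.9) and 256 CPM (234 to 280.1), 1.53-fold (1.31 to 1.79) lower. With every cell weighted the same both fell short of 1.5-fold there (log2 -0.49 and -0.46), as they did with the B cell-like level subtracted (-0.48 and -0.53). With cells thinned to 1000 UMIs they came to -0.75 for Col4a1 and -0.27 for Col4a2. Smooth muscle-like cells had Col4a1 at 154 CPM (120.0 to 195) in 5E1 and 253 CPM (228 to 280.3) in IgG, 1.64-fold (1.27 to 2.16) lower, on 69 and 375 UMIs.

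The proportion of the 2 genes was compared as well. Col4a1 made up between 37.7% and 67.1% of the joint UMIs in the 5E1 library and between 39.9% and 61.2% in the IgG library over the 22 clusters with at least 100 of them, and across 23 clusters the 2 genes correlated at r = 0.98 in 5E1 and 0.99 in IgG (log2(CPM + 1)). The share was lowest in mesothelial-like cells, at 37.7% (32.9 to 42.8) in 5E1 and 39.9% (36.5 to 43.4) in IgG. In pericyte-like cells it was 51.8% (50.2 to 53.5) in 5E1 and 49.3% (47.7 to 50.8) in IgG. It was higher in 5E1 with intervals apart in adventitial fibroblast-like cells, at 52.6% (49.95 to 55.2) in 5E1 and 47.8% (45.9 to 49.8) in IgG. In cluster 20 it stood at 57.2% (53.3 to 61.1) in 5E1 and 49.4% (44.0 to 54.8) in IgG, and in cluster 21 at 46.3% (42.5 to 50.01) and 49.1% (47.5 to 50.7), with intervals that overlap in both. As reads were counted at transcript ends, only the change of such a share is read, not its size.

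The second collagen pair, Col4a3 and Col4a4, whose chains form the alveolar trimer together with that of Col4a5, was found mostly in 3 clusters: AT1-like, AT2-like and mesothelial-like cells held 70.5%, 17.6% and 2.87% of Col4a3 UMIs in 5E1 and 66.2%, 14.9% and 7.97% in IgG. In AT1-like cells, which cover most of the alveolar surface, the libraries were close. Col4a3 stood at 738 CPM (704 to 773) in 5E1 and 672 CPM (634 to 712) in IgG, and Col4a4 at 889 CPM (851 to 927) in 5E1 and 871 CPM (827 to 916) in IgG. None of the 6 members compared in AT1-like cells passed 1.5-fold, against a background of 3.33% of genes higher and 3.72% lower.

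AT2-like cells, the surfactant-making cells that also give rise to AT1 cells, were the place where the second pair differed most. Col4a3 stood at 102 CPM (93.1 to 112) in 5E1 and 51.7 CPM (45.6 to 58.4) in IgG, 1.98-fold (1.695 to 2.32) higher in 5E1. Col4a4 stood at 155 CPM (143 to 167) in 5E1 and 85.1 CPM (77.2 to 93.5) in IgG, 1.82-fold (1.61 to 2.06) higher. These were the 2 of 7 members past 1.5-fold there, and the background was 4.3% of genes higher and 5.7% lower. The 7 members had a median log2 ratio of 0.17 and all genes one of -0.0007. The first pair differed by less in the same cells, with Col4a1 at 199.6 CPM (186 to 213) in 5E1 and 172 CPM (160.4 to 184) in IgG.

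Transcripts that mark AT1 cells moved with the second pair in the AT2-like cluster: the 12 AT1 markers summed to 6167 CPM in 5E1 and 4429 CPM in IgG, all 12 higher in 5E1, and none was at 0. In 3 clusters of other cell types the list went both ways. In interstitial macrophage-like cells (cluster 8) it summed to 145 CPM in 5E1 and 73.8 CPM in IgG, with all 12 higher in 5E1. In B cell-like cells it summed to 178 CPM in 5E1 and 223 CPM in IgG, with 5 higher and 7 lower, and in pericyte-like cells to 470.4 and 495 CPM, with 3 higher and 9 lower. Most of the sum in pericyte-like cells was 1 marker, Emp2, at 360 CPM in 5E1 and 320 CPM in IgG. The sums in all 3 were far below that in AT2-like cells. In AT1-like cells themselves the same list summed to 36580 CPM and 36192 CPM. With each AT2-like cell thinned to 1000 UMIs, which left out no cell in 5E1 and 1 in IgG, 27.0% of cells in 5E1 and 17.4% in IgG had 6 or more AT1 marker UMIs. In those cells Col4a3 stood at 197 CPM (129.9 to 287) in 5E1 and 174 CPM (107 to 265) in IgG, on 27 and 21 UMIs. Col4a4 stood at 277 CPM and 239.7 CPM there, on 38 and 29 UMIs, with overlapping intervals for both genes. In cells with 2 to 5 AT1 marker UMIs Col4a3 stood at 11.5 CPM in 5E1 and 7.94 CPM in IgG, on 3 UMIs in each library, and Col4a4 at 7.66 CPM on 2 UMIs in 5E1 and 26.5 CPM on 10 in IgG. Most UMIs of the pair in this cluster thus came from cells that also carried AT1 markers, in both libraries. The limits of these groups of cells were chosen after the data were seen, and whether such droplets held 1 cell or 2 was not tested.

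**Figure D2:**
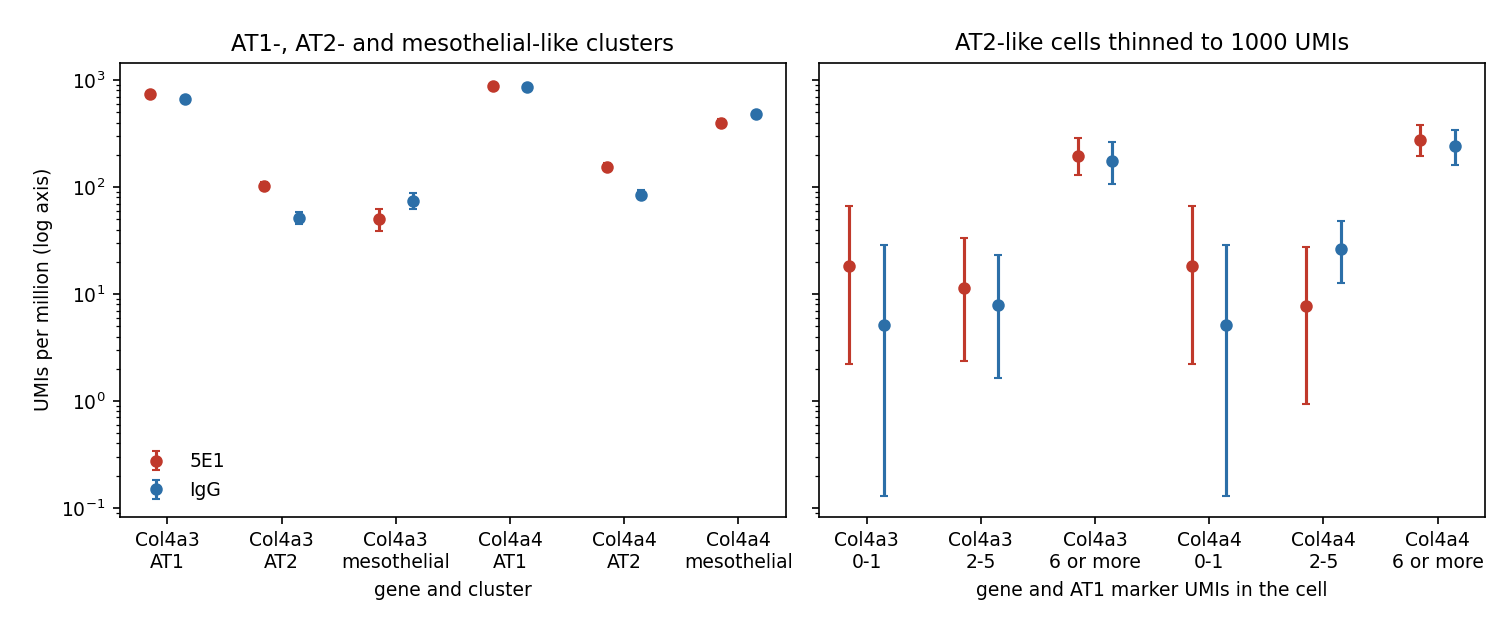
Col4a3 and Col4a4 in CPM on a log axis, 5E1 red and IgG blue, with 95% counting intervals. Left, the 3 clusters that hold most of their UMIs; right, AT2-like cells grouped by their number of AT1 marker UMIs after thinning. In AT2-like cells as a whole Col4a3 stood at 102 in 5E1 and 51.7 in IgG, on 442 and 259 UMIs. Within each group of cells on the right the intervals overlap, on at most 38 UMIs of a gene per library. These are too few to tell whether a difference remains within a group.

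Mesothelial-like cells made Col4a4 with little Col4a3. Col4a4 stood at 395 CPM (363 to 429) in 5E1 and 484 CPM (453 to 517) in IgG, second to AT1-like cells in both libraries. Col4a3 stood at 50.02 CPM (39.1 to 63.0) in 5E1 and 73.9 CPM (62.1 to 87.2) in IgG, below AT2-like cells in 5E1 and above them in IgG, with intervals apart in each library. The share of Col4a3 in the joint UMIs was 11.2% (8.89 to 13.9) in 5E1 and 13.2% (11.2 to 15.4) in IgG in mesothelial-like cells. It was 45.4% (43.8 to 47.0) in 5E1 and 43.6% (41.7 to 45.5) in IgG in AT1-like cells, and 39.8% (36.9 to 42.8) and 37.8% (34.2 to 41.6) in AT2-like cells. The intervals of mesothelial-like cells lie apart from both others in each library.

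Lama3 encodes the alpha chain of an epithelial laminin that anchors cells through the integrin of hemidesmosomes. The gene lies at chr18:12333819-12583013 on the plus strand. In AT1-like cells it stood at 157 CPM (142 to 174) in 5E1 and 150.4 CPM (133 to 170.0) in IgG. AT2-like cells had 22.9 CPM (18.6 to 27.9) in 5E1 and 21.6 CPM (17.7 to 26.03) in IgG. The libraries overlapped in both clusters, including AT2-like cells, where the second collagen pair was higher in 5E1. These 2 clusters were the only ones in which Lama3 could be compared, and they held 58.3% and 15.3% of its UMIs in 5E1 and 53.1% and 22.2% in IgG.

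Lama4 encodes the alpha chain of laminins found around vessels and in mesenchyme, and lies at chr10:38965515-39110188 on the plus strand. Of the 4 laminin genes it was the 1 that stood higher in 5E1 past 1.5-fold in any cluster compared. In the larger matrix fibroblast-like cluster, 19, Lama4 stood at 137 CPM (123 to 153) in 5E1 and 89.9 CPM (83.9 to 96.2) in IgG, 1.53-fold (1.34 to 1.74) higher. The second matrix fibroblast-like cluster, 20, had 144 CPM (129 to 161) in 5E1 and 103 CPM (84.8 to 123) in IgG, 1.404-fold (1.13 to 1.75) higher. Mesothelial-like cells had 52.1 CPM (41.0 to 65.3) in 5E1 and 28.2 CPM (21.1 to 36.8) in IgG, 1.85-fold (1.28 to 2.68) higher, on 75 and 53 UMIs. In cluster 19 the difference came to log2 0.52 with cells thinned to 1000 UMIs, just short of 1.5-fold. Matrix fibroblast markers summed to 7975 CPM in 5E1 and 6363 CPM in IgG in that cluster, blood endothelial markers to 705 and 439 CPM and mesothelial markers to 170.5 and 65.0 CPM, and their part in the difference was not tested.

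Lama4 and Lamb1 shared their first 5 clusters in the same order (14, 13, 20, 19 and 18) and parted in their difference between the libraries. In alveolar myofibroblast-like cells Lama4 stood at 78.3 CPM (65.6 to 92.8) in 5E1 and 65.3 CPM (58.5 to 72.7) in IgG in cluster 21 and at 59.3 CPM in 5E1 and 47.8 CPM in IgG in cluster 23, with the collagens of the first pair lower in the same cells. Its intervals overlap between the libraries in both clusters. Pericyte-like cells had Lama4 at 150.4 CPM (132 to 171) in 5E1 and 128 CPM (113 to 144) in IgG, likewise overlapping. The cluster with the highest Lama4, cluster 14, had 251 CPM (177 to 346) in 5E1 and 200.3 CPM (166 to 239.6) in IgG, on 37 and 120 UMIs.

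Lamb1, at chr12:31265234-31329644 on the plus strand, encodes the beta chain shared by many laminins, and was lower in 5E1 in alveolar myofibroblast-like cells. In cluster 12 it stood at 55.5 CPM (44.6 to 68.2) in 5E1 and 87.9 CPM (80.6 to 95.8) in IgG, 1.58-fold (1.26 to 2.004) lower. In cluster 23 it stood at 65.0 CPM (56.8 to 73.9) in 5E1 and 97.6 CPM (86.9 to 109) in IgG, 1.503-fold (1.26 to 1.79) lower, a difference that turned to log2 0.051 with cells thinned to 1000 UMIs. In cluster 21 it was 1.42-fold (1.11 to 1.83) lower, at 47.1 CPM (37.3 to 58.6) in 5E1 and 66.8 CPM (59.95 to 74.3) in IgG. Matrix fibroblast-like cells of cluster 19 had 119 CPM (106 to 133) in 5E1 and 111 CPM (104 to 118) in IgG, and pericyte-like cells 223 CPM (201 to 247) and 191 CPM (173 to 211), with overlapping intervals in both. In mesothelial-like cells Lamb1 stood at 46.5 CPM (36.1 to 59.1) in 5E1 and 72.8 CPM (61.1 to 86.1) in IgG, lower where Lama4 was higher. Not all of this held under the 5 other ways of scaling, weighting or selecting the cells. Lamb1 stayed past 1.5-fold under 2 of them in cluster 12, 1 in cluster 23 and 3 in mesothelial-like cells.

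Lamc1, at chr1:153218922-153332786 on the minus strand, encodes the gamma chain of most laminins. It was compared in 20 clusters, the most of the 10 members. The limit for this is set by each gene's own highest CPM, so the count does not measure how widely a gene is made. Mesothelial-like cells had 197 CPM (175 to 222) in 5E1 and 261 CPM (239 to 286) in IgG, and AT1-like cells 135 CPM (121 to 151) and 166 CPM (147 to 187). Both were lower in 5E1 by less than 1.5-fold, with intervals that overlap in AT1-like cells. Alveolar myofibroblast-like cells of cluster 23 had 98.0 CPM (88.0 to 109) in 5E1 and 148 CPM (135 to 163) in IgG, 1.51-fold (1.31 to 1.75) lower. In the other 2 alveolar myofibroblast-like clusters it was lower by less, at 118 CPM in 5E1 and 140.3 CPM in IgG in cluster 21 and at 95.6 CPM and 122 CPM in cluster 12. Pericyte-like and matrix fibroblast-like cells did not move past counting error, with 193 CPM (173 to 216) in 5E1 and 182 CPM (165 to 202) in IgG in pericyte-like cells.

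Nid1, at chr13:13437551-13512269 on the plus strand, encodes the nidogen that links laminin to type IV collagen. It stood at 373 CPM (344 to 404) in 5E1 and 363 CPM (337 to 389) in IgG in pericyte-like cells and at 265 CPM (246 to 284) and 260.2 CPM (246 to 275) in adventitial fibroblast-like cells, its highest named clusters, with overlapping intervals in both. Alveolar myofibroblast-like cells had less of it in 5E1. Nid1 stood at 50.6 CPM (40.2 to 62.8) in 5E1 and 91.3 CPM (83.8 to 99.3) in IgG in cluster 12, 1.805-fold (1.43 to 2.31) lower. In cluster 21 it stood at 70.1 CPM (58.0 to 83.8) in 5E1 and 110.3 CPM (101 to 119.8) in IgG, 1.57-fold (1.29 to 1.94) lower, and in cluster 23 at 64.4 CPM in 5E1 and 91.2 CPM in IgG. With thinned cells the difference came to log2 -0.11 in cluster 12 and -1.30 in cluster 21. Smooth muscle-like cells had 80.5 CPM (56.4 to 111) in 5E1 and 126 CPM (109 to 146) in IgG, 1.57-fold (1.09 to 2.31) lower, which came to log2 -0.012 with thinned cells and -0.17 in cells chosen for Xist and against Y-linked UMIs. Matrix fibroblast-like cells of cluster 19 had 153 CPM (138 to 169.7) in 5E1 and 199 CPM (189.9 to 208) in IgG, lower by less than 1.5-fold where Lama4 was higher, and endothelial-like cells 149.7 CPM (143 to 157) and 150.5 CPM (143 to 158).

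Nid2, at chr14:19751265-19811787 on the plus strand, encodes the second nidogen, which binds the same partners. It was highest in mesothelial-like cells, at 84.1 CPM (69.7 to 100.4) in 5E1 and 56.3 CPM (46.1 to 68.1) in IgG, 1.49-fold (1.14 to 1.96) higher in 5E1, and next in pericyte-like cells, at 52.8 CPM (42.2 to 65.2) and 46.6 CPM (37.8 to 56.7). In mesothelial-like cells Nid1 made up 59.1% (53.3 to 64.8) of the joint nidogen UMIs in 5E1 and 68.6% (63.4 to 73.6) in IgG, the lowest of 17 clusters with at least 100 such UMIs. In endothelial-like cells the share of Nid1 was 86.7% (85.1 to 88.1) in 5E1 and 87.3% (85.7 to 88.8) in IgG. At the other end, cluster 21 held 0 Nid2 UMIs in 5E1, where the floor of 3 counts is 1.77 CPM and the exact interval reaches 2.17 CPM. In IgG it held 17 UMIs or 3.31 CPM (1.93 to 5.304), so the intervals overlap. Cluster 20 held 43 Nid2 UMIs in 5E1 and 12 in IgG, 1.83-fold (0.946 to 3.804) higher with an interval that includes 1.

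**Figure D3:**
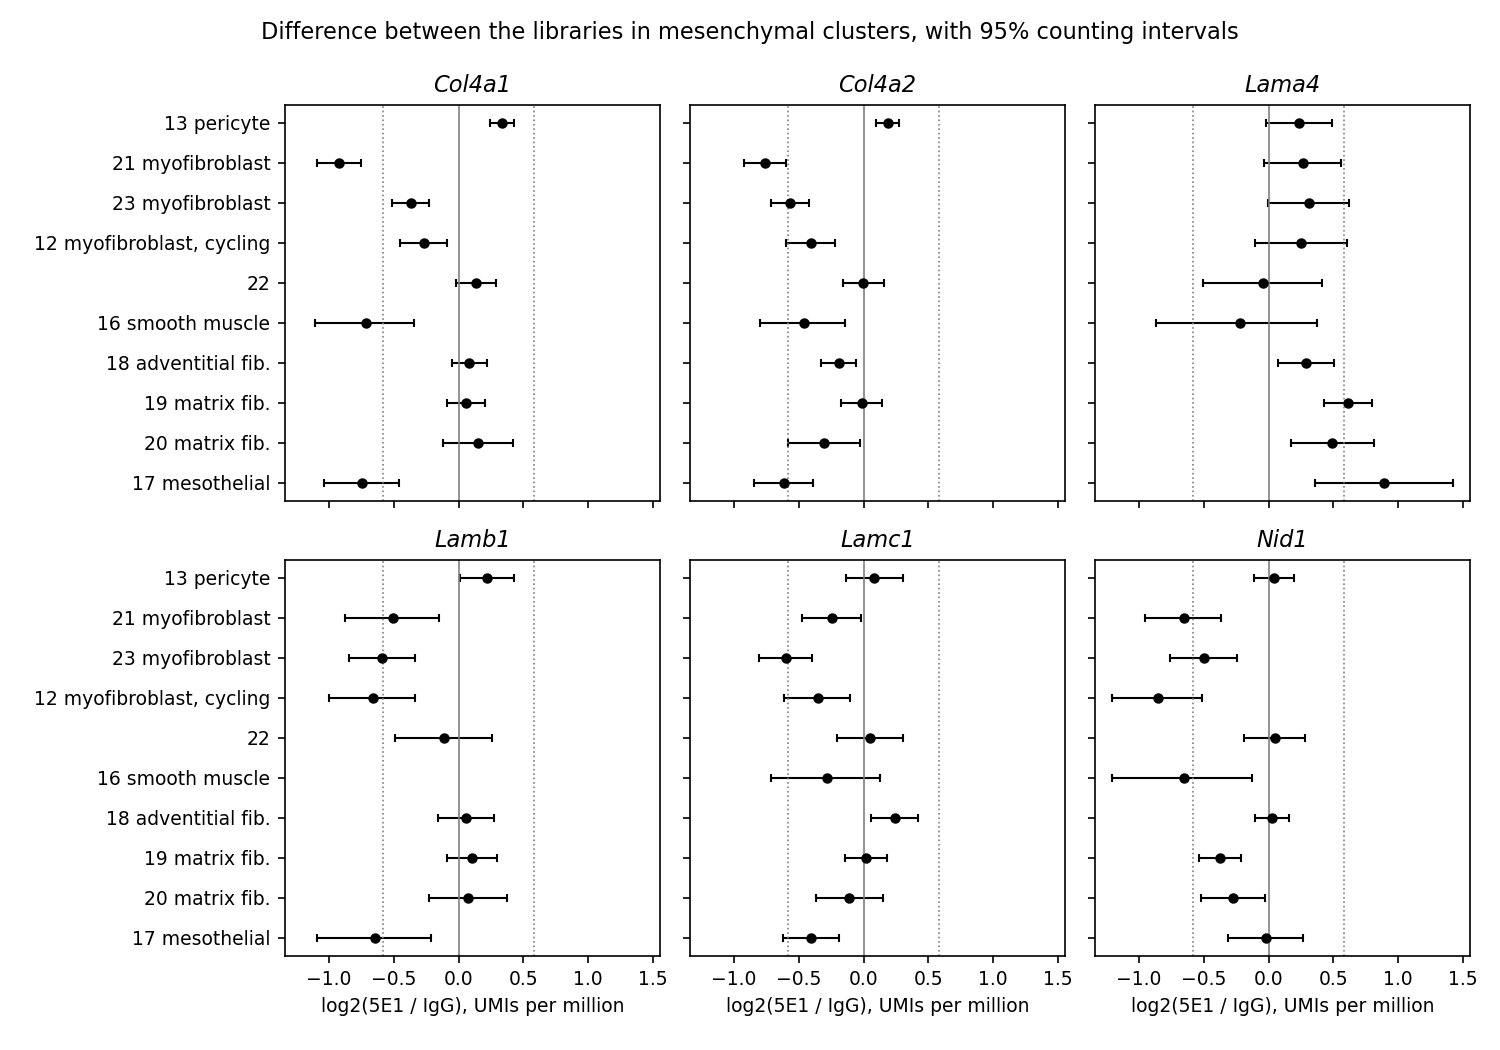
Log2 ratio of 5E1 over IgG (horizontal axis) for 6 members in 10 mesenchymal clusters (vertical axis); points right of 0 are higher in 5E1, bars are 95% counting intervals, dotted lines mark 1.5-fold and pairs under the count limits are left out. Col4a1, Col4a2, Lamb1, Lamc1 and Nid1 lie left of 0 in clusters 21, 23 and 12, and Lama4 lies right of 0 there.

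Counted by cluster, the 12 lower pairs of mesenchymal clusters were all in alveolar myofibroblast-like, smooth muscle-like and mesothelial-like cells. In immune clusters 4 of 9 pairs were lower. Only in cluster 21 did lower pairs stay past 1.5-fold under each of the 5 other ways of scaling, weighting or selecting the cells. In cluster 21, 3 of 6 members were lower past 1.5-fold and none higher, against a background of 8.24% lower and 5.68% higher, and the members' median log2 ratio was -0.57 against -0.04 for all genes. In cluster 23, 2 of 6 were lower and none higher (background 6.02% and 5.18%), with medians of -0.53 for members and -0.05 for all genes. Cluster 12 also had 2 of 6 lower and none higher (background 9.64% and 4.01%), with medians of -0.38 and -0.07. In all 3 clusters Lama4 was the 1 member above 0.

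Of the smooth muscle-like cluster, 2 of 5 members were lower and none higher (background 11% and 5.18%), with medians of -0.46 for members and -0.04 for all genes. Mesothelial-like cells had 3 of 9 lower and 1 higher (background 5.66% and 4.95%), with medians of -0.41 and -0.02. Pericyte-like cells had none of 7 past 1.5-fold (background 3.91% higher and 4.13% lower), yet all 7 lay above 0, with medians of 0.19 for members and 0.02 for all genes. In adventitial fibroblast-like cells none of 7 passed (background 3.2% higher, 4.2% lower). In matrix fibroblast-like cells 1 of 7 was higher in cluster 19 (background 6.2% higher, 10.5% lower) and 1 of 7 in cluster 20 (background 6.7%, 6.18%). None of 7 passed in cluster 22 (background 2.97%, 3.87%), none of 7 in endothelial-like cells (background 2.38%, 3.85%) and none of 6 in cluster 14 (background 10.2%, 19.2%). Cluster 10 had 1 of 3 lower, Lamb1 at 10.5 CPM in 5E1 and 17.5 CPM in IgG (background 2.1% higher, 3.66% lower). Among immune clusters, 2 of 2 were lower in cluster 6, Lamc1 and Nid1 (background 4.29%, 8.33%), and 1 of 1 in dendritic-like cells of cluster 7, Lamc1 (background 3.25%, 5.94%), each on fewer than 100 UMIs in both libraries together. With cells thinned to 1000 UMIs Lamc1 lay on the other side of 0, at log2 1.12 in cluster 6 and 1.51 in cluster 7.

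Other transcripts moved with these differences. Smooth muscle markers, which alveolar myofibroblasts express in part, summed to 7308 CPM in 5E1 and 13932 CPM in IgG in cluster 21, to 6741 and 10262 in cluster 23, and to 4589.6 and 8463 in cluster 12, with 8, 9 and 9 of the 10 lower in 5E1. Pericyte markers summed to 755 CPM in 5E1 and 539 CPM in IgG in cluster 21, 6 of 13 higher and 7 lower. AT1 markers summed to 426 CPM in 5E1 and 242 CPM in IgG in cluster 21 and to 349 and 266 CPM in cluster 12, all 12 higher in 5E1 in both, and to 329.9 and 228 CPM in cluster 23, 10 of 12 higher. Emp2 made up much of these sums. It stood at 151 CPM in 5E1 and 147 CPM in IgG in cluster 21 and at 189 and 180 CPM in cluster 12. In cluster 23 Emp2 stood at 166 and 153 CPM. Blood endothelial markers summed to 518 CPM and 555 CPM in cluster 21. In mesothelial-like cells smooth muscle markers summed to 207 CPM in 5E1 and 442 CPM in IgG, all 10 lower in 5E1, as they were in B cell-like cells, with 197 CPM and 480.3 CPM. Pericyte markers in mesothelial-like cells summed to 135 CPM in 5E1 and 224 CPM in IgG, 11 of 13 lower, beside the lower Col4a1 and Col4a2 there. AT2 markers there summed to 1618 CPM in 5E1 and 584 CPM in IgG. Mesothelial markers in mesothelial-like cells summed to 13515 and 13324 CPM. In cells chosen, in both libraries, for Xist and against Y-linked UMIs, Col4a1 in cluster 21 came to log2 -1.08, against -0.92 with all cells. The part of the other transcripts in these differences was not tested.

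The endothelial-like cluster was split by marker UMIs, a division chosen after the data were seen: a cell joined the Car4 capillary, arterial or lymphatic group with at least 5 UMIs of that list and at least 2 times as many as of the next (Kdr, Emcn and Ccl21a were not counted), and 143 cells in 5E1 and 171 in IgG lay within 1 UMI of the limit. Cells were not thinned for this, so deeper cells reach the limit more easily. Median depths in 5E1 and IgG were 3697 and 3948 UMIs in Car4 cells and 5732 and 5363 in arterial cells. They were 8163 and 7511 in lymphatic cells and 4197 and 3552 in the cells in no group. The cells in no group were 50.0% of the cluster in each library and still held Car4, at 176 CPM in 5E1 and 154 CPM in IgG. Col4a1 and Col4a2 varied more between these groups than between the libraries. Car4 capillary cells, the large capillary cells that face AT1 cells, had Col4a1 at 784 CPM (744 to 826) in 5E1 and 802 CPM (761 to 844) in IgG. Lymphatic cells had it at 406 CPM (378 to 435) in 5E1 and 359.8 CPM (331 to 390.3) in IgG. Arterial cells had 359 CPM (335 to 384) in 5E1 and 478 CPM (449 to 508) in IgG, and the cells in no group 706 CPM (684 to 728) and 596 CPM (574 to 618). In these last 2 groups the libraries lay apart in opposite directions, lower in 5E1 in arterial cells and higher in 5E1 in the rest, which the whole cluster does not show.

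Of the laminin chains, Lama4 and Lamb1 were higher in lymphatic cells than in the other groups, and Lamc1 was not. Lama4 stood at 133 CPM (117 to 149) in 5E1 and 194 CPM (173 to 217) in IgG in lymphatic cells, at 21.03 CPM in 5E1 and 22.2 CPM in IgG in Car4 cells and at 40.6 and 28.5 CPM in arterial cells. In lymphatic cells Lama4 was thus lower in 5E1 with intervals apart, unlike its higher level in 5E1 in matrix fibroblast-like and mesothelial-like cells. Lamb1 was at 49.5 CPM (40.3 to 60.2) in 5E1 and 52.0 CPM (41.5 to 64.4) in IgG in lymphatic cells and at 17.2 CPM in 5E1 and 19.4 CPM in IgG in Car4 cells. Lamc1 stood at 94.5 CPM (81.6 to 109) in 5E1 and 99.7 CPM (84.9 to 116) in IgG in lymphatic cells and at 105 CPM (90.2 to 121) and 95.3 CPM (81.6 to 111) in Car4 cells, with overlapping intervals. Nid1 was highest in Car4 cells, as the collagens were, at 205 CPM (184 to 227) in 5E1 and 219.9 CPM (199 to 243) in IgG. Arterial cells had 119 CPM (105 to 134) and 111 CPM (97.8 to 127). Lymphatic cells had 124 CPM (109 to 140) in 5E1 and 139 CPM (121 to 158) in IgG. Nid1 was thus not higher in arterial than in lymphatic cells in IgG, whereas Col4a1 was.

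**Figure D4:**
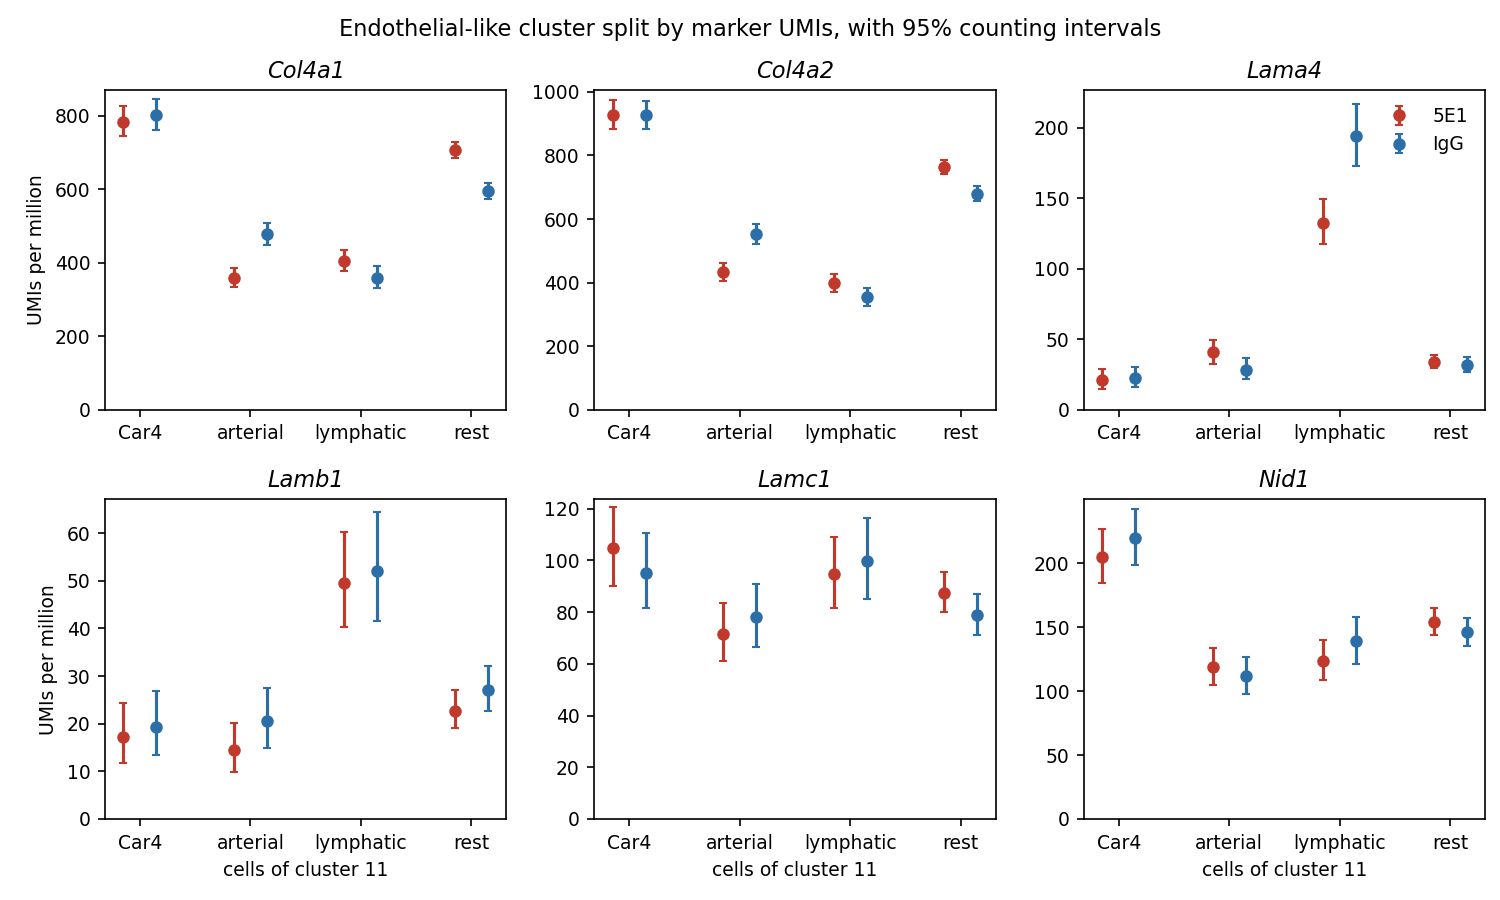
Level of 6 members in CPM (vertical axes start at 0) in 4 groups of endothelial-like cells (horizontal axis), 5E1 red and left, IgG blue and right, with 95% counting intervals. Lama4 and Lamb1 are highest in the lymphatic group and Col4a1, Col4a2 and Nid1 in the Car4 group, in both libraries.

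The rest of the basement membrane was followed with 61 genes in 5 lists, of which up to 5 genes with the highest and 5 with the lowest ratio per cluster may be named. In AT2-like cells 38 could be compared, 8 higher and 3 lower in 5E1 past 1.5-fold (background as above, 4.3% and 5.7%), with a median log2 ratio of 0.21. Of the other laminin and type IV collagen chains 3 of 5 compared were higher there. Col4a5, the partner of the second collagen pair, stood at 43.8 CPM (37.8 to 50.5) in 5E1 and 26.2 CPM (21.9 to 31.0) in IgG. Agrn, which encodes a heparan sulfate proteoglycan of basement membranes, stood at 78.3 CPM (70.2 to 87.2) in 5E1 and 45.3 CPM (39.6 to 51.6) in IgG, and Hspg2, which encodes perlecan, at 73.7 CPM and 44.3 CPM. In AT1-like cells 1 of 35 was higher and none lower, P3h2, which hydroxylates prolines of collagen, at 34.2 CPM (27.2 to 42.5) in 5E1 and 17.5 CPM (11.8 to 24.97) in IgG.

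In alveolar myofibroblast-like cells the lists differed by cluster. In cluster 12, 2 of 36 were higher and 7 lower (background 4.01% higher, 9.64% lower), and in cluster 23, 2 of 35 were higher and 5 lower (background 5.18%, 6.02%). In cluster 21, where 3 of 6 members were lower, 3 of 40 were higher and 3 lower, near the background of 5.68% and 8.24%, with a median log2 ratio of -0.02. Loxl2, a lysyl oxidase that crosslinks type IV collagen, stood at 107 CPM (92.0 to 124) in 5E1 and 269 CPM (256 to 282) in IgG in cluster 12 and at 122 CPM (111 to 134) and 277 CPM (259 to 296) in cluster 23, 2.503-fold (2.14 to 2.94) and 2.27-fold (2.02 to 2.55) lower. Hmcn1, which encodes hemicentin, stood at 149 CPM in 5E1 and 291 CPM in IgG in cluster 12 and at 168 and 359 CPM in cluster 23. Lama5, which encodes the alpha chain of the main alveolar laminin, was lower in all 3 clusters, at 14.8 CPM (9.48 to 22.02) in 5E1 and 42.2 CPM (37.2 to 47.8) in IgG in cluster 12 and at 20.6 CPM (14.4 to 28.7) and 34.5 CPM (29.6 to 39.96) in cluster 21. Lama4 lay on the other side of 0 in the same cells.

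Synthesis genes were less uniform in alveolar myofibroblast-like cells. P4ha2, a collagen prolyl hydroxylase subunit, was lower in 5E1 in clusters 12 and 23, at 8.63 CPM (4.72 to 14.5) in 5E1 and 20.4 CPM (16.97 to 24.4) in IgG in cluster 12. P3h2 was higher in clusters 12 and 21, at 59.5 CPM (48.4 to 72.2) in 5E1 and 32.0 CPM (27.3 to 37.2) in IgG in cluster 21. Col4a5 was higher in cluster 21 as well, at 20.6 CPM (14.4 to 28.7) in 5E1 and 11.3 CPM (8.58 to 14.6) in IgG, where Col4a1 and Col4a2 were lower. Adamts1, a secreted protease, stood at 67.8 CPM (59.5 to 76.9) in 5E1 and 25.9 CPM (20.5 to 32.2) in IgG in cluster 23, and Adamts9 at 23.5 CPM (16.8 to 32.1) and 70.5 CPM (63.5 to 78.2) in cluster 21, lower.

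Smooth muscle-like cells had 4 of 27 higher and 1 lower (background 5.18% higher, 11% lower), in the cluster where 2 of 5 members were lower. Col4a5 stood at 96.1 CPM (69.6 to 129) in 5E1 and 54.7 CPM (43.5 to 68.0) in IgG there, and Adamts1 at 165 CPM (129.9 to 208) and 109 CPM (92.6 to 127). Cluster 22 had 3 of 43 higher and none lower (background 2.97%, 3.87%), among them the protease inhibitor Timp4 at 276 CPM (256 to 297) in 5E1 and 161 CPM (148 to 176) in IgG. Pericyte-like cells had 1 of 36 higher and none lower, Lama2, an alpha chain of muscle laminins, at 90.9 CPM (76.8 to 107) in 5E1 and 55.6 CPM (46.0 to 66.6) in IgG. Matrix fibroblast-like cells of cluster 19 had none of 38 past 1.5-fold, and those of cluster 20 had 1 of 35 higher and 3 lower. Npnt, which encodes the integrin ligand nephronectin and is also on the matrix fibroblast marker list, was the highest in cluster 20, at 1192 CPM (1147 to 1239) in 5E1 and 750.1 CPM (700.0 to 803) in IgG. In cluster 19 it was at 1094 CPM (1054 to 1136) in 5E1 and 754 CPM (736 to 772) in IgG. Of 43 genes in endothelial-like cells 1 was higher and 2 lower, and of 44 in adventitial fibroblast-like cells 1 was higher and 1 lower. Mesothelial-like cells had 2 of 45 higher and 2 lower, among them the fibulin gene Fbln2 at 213 CPM (190.1 to 239) in 5E1 and 114 CPM (99.5 to 131) in IgG and the protease inhibitor Timp3 at 151 CPM (132 to 173) and 253 CPM (231 to 277).

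The genes most like each member in their pattern were taken by the correlation of log2(CPM + 1), mean of both libraries, across the 23 clusters among 6823 genes with at least 50 CPM in a cluster. Fermt2, an integrin-binding adaptor, was closest to both Col4a1 (r = 0.96) and Col4a2 (0.95). Spock2, which encodes a secreted proteoglycan and is on the AT1 marker list, was closest to both Col4a3 (0.96) and Col4a4 (0.94). Hoxa5, a homeobox gene, was closest to Lama4 (0.95) and among the first 3 for Nid1 (0.95), after Meis1 (0.95). Nr2f2, a nuclear receptor gene, was closest to Lamb1 (0.96) and Sparc, which encodes a collagen-binding protein, to Lamc1 (0.96). Lama3 and Nid2 had looser neighbours, Rnf181 (0.91) and Tslp (0.82). These 23 points share 2 libraries, so the values describe likeness here only.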

How the data were processed

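The members, gene lists and cell groups were chosen with earlier results of these data known. The counts used here are whole UMI counts per gene and cell barcode, not normalized, in the matrices deposited by the authors; Cell Ranger 3.1.1 and mm10 are named per the submitters' processing notes, and the matrix headers give software version 3.0.0. Alignment and cell calling settings, and any doublet removal, were not given in the sources used here; no doublet caller was run. The clusters come from the authors' deposited annotation, which names iCellR in its header; that header is shifted by 1 column, and the cluster is under the neighbouring heading. UMIs were summed per library and cluster.

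With 1 library per condition no test was possible. Intervals are exact 95% ones: Poisson for CPM, conditional binomial for ratios and Clopper-Pearson for shares. A gene at 0 is given a floor of 3 counts. A difference was counted from 1.5-fold, given 50 or more UMIs over the 2 libraries and 5% or more of the gene's highest CPM. The background is over all genes with at least 50 UMIs in the cluster, without the limit of 5%. Log2 ratios have 0.5 UMI added to each sum. Code was tested on simulated counts.

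Named genes were all members within those limits, up to 5 genes with the highest and 5 with the lowest ratio per cluster from the other lists, and the 3 genes most like each member. Alternatives were median-ratio scaling, thinning to 1000 UMIs per cell, equal weight for each cell, cells with Xist and no Y-linked UMI, subtraction of the B cell-like level, minimums of 20 and 200 UMIs and a limit of 2-fold. Python 3.11.15, numpy 2.4.6, scipy 1.17.1, pandas 2.3.3 and matplotlib 3.10.9 were used.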

Additional observations from a re-analysis of the deposited data

How the results depend on the processing

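No paired analysis was possible because each condition has 1 library, so no replicate could be left out either. Of the 22 differences past 1.5-fold, 22 kept their direction and 19 stayed past it under median-ratio scaling. With cells thinned to 1000 UMIs 19 kept their direction and 11 stayed past, with every cell weighted the same 22 and 14, with cells holding Xist and no Y-linked UMI 22 and 21, and with the B cell-like level subtracted 17 and 11 of the 18 that still had a value. Against 5 higher pairs of gene and cluster, thinning gave 10, subtraction 10, a minimum of 200 UMIs 3 and a limit of 2-fold 0. Against 17 lower pairs, equal cell weights gave 10, subtraction 7 and the 2-fold limit 2. Leaving out the 8 immune clusters, an alternative chosen after seeing the data, left 5 higher and 13 lower. For the 5 other lists, against 30 higher pairs thinning gave 99, the selection by Xist 52, subtraction 82, the minimum of 200 UMIs 16 and the 2-fold limit 6, and against 28 lower pairs thinning gave 66, the minimum 14 and the 2-fold limit 11. Thinned sums hold fewer UMIs per gene, and the cause of the other changes was not tested. The background over all genes was not taken again under any alternative. These counts, of members and of the other lists, thus have no share of all genes to stand beside.

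The direction turned for Lamb1 in cluster 10 with subtraction (log2 1.44) and, with thinning, for Lamb1 in cluster 23 (0.051) and Lamc1 in clusters 6 (1.12) and 7 (1.51). Subtraction moved the share of Col4a1 in its pair to 47.2% in cluster 21 of IgG. It moved the share of Nid1 to 61.6% in mesothelial-like cells of IgG, and to 84.6% in 5E1 and 85.3% in IgG in endothelial-like cells. The cluster with the highest level was the same for 10 of 10 members under thinning and equal weights. Median-ratio scaling moved the median of all genes by more than 0.1 in cluster 14 alone.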

Other observations

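Cluster 14, which led with haemoglobin and platelet genes, had matrix fibroblast markers at 9893 CPM in 5E1 and 9104 CPM in IgG, and 6 of the 14 among its 30 leading genes. It stood highest or among the highest for the mesenchymal members: Nid1 was at 257 CPM (182 to 353) in 5E1 and 346 CPM (300.1 to 396) in IgG, and Lamb1 at 271 CPM (194 to 369) in 5E1 and 267 CPM (227 to 312) in IgG. Col4a1 stood at 386 CPM (293 to 500.4) in 5E1 and 306 CPM (263 to 353) in IgG, more than in matrix fibroblast-like clusters 19 and 20. Its cells were shallow, with medians of 1911 UMIs in 5E1 and 2210.5 in IgG.

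Interstitial macrophage-like cells (cluster 8) had the lowest share of Nid1 in the joint nidogen UMIs of the 23 clusters, on fewer than 100 such UMIs. They held 28 UMIs of Nid2 and 13 of Nid1 in 5E1, and 31 and 24 in IgG, and the share of Nid1 was 31.7% (18.1 to 48.1) in 5E1 and 43.6% (30.3 to 57.7) in IgG. Nid2 stood at 19.1 CPM (12.7 to 27.6) in 5E1 and 15.8 CPM (10.7 to 22.4) in IgG there, and at 0.479 CPM (0.0121 to 2.67) and 2.19 CPM (0.451 to 6.39) in B cell-like cells. This was picked out after the values were seen.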
